A study of Mus musculus with 8 samples.

Results

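The Cyp2 and Cyp3 cytochrome P450 genes measured here are the drug- and steroid-metabolizing part of the mouse P450 family. They were taken from the 40838 rows of a liver count table by gene symbol, as all protein-coding genes whose names begin with Cyp2a, Cyp2b, Cyp2c, Cyp2d, Cyp2g, Cyp2j, Cyp2r, Cyp2s, Cyp2u or Cyp3a, with Cyp2c70 and Cyp2d9 left out and with at least 80 counts over the 8 libraries. Of 53 such genes, 42 met the rule. These were 4 Cyp2a, 3 Cyp2b, 12 Cyp2c, 7 Cyp2d, 1 Cyp2g, 3 Cyp2j, 1 Cyp2r, 1 Cyp2s, 1 Cyp2u and 9 Cyp3a genes. The genes below the minimum were Cyp2ab1, Cyp2b19, Cyp2b23, Cyp2c65, Cyp2c66, Cyp2j8, Cyp2j11, Cyp2j12 and Cyp2j13. The gene just above it was Cyp2g1 with 124 counts and the gene just below it was Cyp2j8 with 48 counts. All 42 genes passed the separate filter on low counts that preceded the test.

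The livers came from C57BL/6 mice on a diet that produces nonalcoholic steatohepatitis (NASH), a fatty and inflamed liver. After 7 weeks of this diet the mice received an adeno-associated virus (AAV) that carried either Lpcat3 (the Lpcat3 group, 4 libraries) or enhanced green fluorescent protein (the eGFP group, 4 libraries). Both transgenes were driven by TBG, a promoter active in hepatocytes, and both groups then ate the diet for 9 more weeks, 16 weeks in all, so that NASH diet and AAV are common to the 2 groups. Total RNA of whole liver was sequenced after removal of ribosomal RNA. The labels state neither the sex of the mice nor whether each library is its own animal, so the p-values reflect the spread between libraries, which may be technical.

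P450 enzymes are heme proteins of the endoplasmic reticulum that insert oxygen into drugs, steroids, bile acids and fatty acids, with electrons passed on by the oxidoreductase encoded by Por. In mouse liver most of them are made by hepatocytes, many of them near the central vein, and their genes are read under the nuclear receptors CAR (Nr1i3), PXR (Nr1i2) and HNF4A. Several differ between male and female liver through the rhythm of growth hormone, and inflammatory cytokines are known to lower many P450 transcripts.

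Promoter sequences of 7 of these genes are shown because they hold a common element in genes whose transcripts varied very differently over the libraries. The element searched for was CAAAGTNCA, a short form of the direct repeat that HNF4A binds, on both strands of the 250 bases before the start of transcription in RefSeq (assembly GRCm38.p6). It was present in 12 of the 35 members with a promoter entry (34.3%), against 392 of 32851 mouse promoters of this length (1.19%). These were Cyp2c37, Cyp2c40, Cyp2c50, Cyp2c67, Cyp2c68, Cyp2c69, Cyp2d26, Cyp3a11, Cyp3a16, Cyp3a41a, Cyp3a41b and Cyp3a44, all with the match on the strand of the gene. Members of one subfamily share sequence, so these promoters are not independent of one another. Cyp2c23, Cyp2c54, Cyp2d12, Cyp2d22, Cyp2d34, Cyp2g1 and Cyp2u1 had no entry in the promoter table. Each line gives the 150 bases before the start, from 5′ to 3′ on the gene's strand, with the match in capitals.
Cyp2c37: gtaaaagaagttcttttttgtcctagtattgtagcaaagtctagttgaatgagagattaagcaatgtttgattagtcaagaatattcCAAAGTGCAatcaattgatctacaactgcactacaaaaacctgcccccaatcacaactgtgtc
Cyp2c50: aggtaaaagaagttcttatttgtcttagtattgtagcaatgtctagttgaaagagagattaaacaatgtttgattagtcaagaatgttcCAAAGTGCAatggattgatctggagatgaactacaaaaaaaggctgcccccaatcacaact
Cyp2c40: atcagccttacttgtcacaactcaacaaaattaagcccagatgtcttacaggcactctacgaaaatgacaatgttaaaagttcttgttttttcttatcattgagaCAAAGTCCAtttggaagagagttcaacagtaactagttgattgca
Cyp2c69: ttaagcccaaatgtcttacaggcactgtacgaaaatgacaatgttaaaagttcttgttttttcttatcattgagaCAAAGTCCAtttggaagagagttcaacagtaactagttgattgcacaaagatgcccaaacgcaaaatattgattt
Cyp3a11: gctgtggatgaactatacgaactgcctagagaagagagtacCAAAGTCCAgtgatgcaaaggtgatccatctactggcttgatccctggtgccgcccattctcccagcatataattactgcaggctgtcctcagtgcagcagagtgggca
Cyp3a41a: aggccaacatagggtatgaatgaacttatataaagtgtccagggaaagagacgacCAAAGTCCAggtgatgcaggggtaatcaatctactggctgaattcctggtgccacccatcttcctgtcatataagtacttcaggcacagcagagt
Cyp3a41b: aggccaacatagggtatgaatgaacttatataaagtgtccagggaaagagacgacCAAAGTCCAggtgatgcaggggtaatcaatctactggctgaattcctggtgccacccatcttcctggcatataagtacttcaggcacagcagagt

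In GRCm38.p6 these stretches lie at chr19:39992274-39992423 (Cyp2c37, plus strand), chr19:40089529-40089678 (Cyp2c50, plus strand), chr19:39812815-39812964 (Cyp2c40, minus strand) and chr19:39886770-39886919 (Cyp2c69, minus strand). The Cyp3a stretches lie on the minus strand at chr5:145879855-145880004 (Cyp3a11), chr5:145720137-145720286 (Cyp3a41a) and chr5:145584731-145584880 (Cyp3a41b). Cyp3a41a and Cyp3a41b differ at 1 of the 150 bases. Cyp2c37, Cyp2c50 and Cyp2d26 carry G at the open base of the element, Cyp3a44 carries A and the other 8 carry C. Hnf4a itself, the gene of the factor, was at 453 ± 31.0 CPM in Lpcat3 livers and 439 ± 22.6 CPM in eGFP livers (SD, n = 4 each; CPM, reads scaled to a common library size by TMM).

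The libraries held 22433625 to 25651874 counts, and 17438 genes were tested with edgeR's quasi-likelihood test. Lpcat3 was at 274, 401, 465 and 311 CPM in the Lpcat3 libraries, against 158, 148, 133 and 173 CPM in the eGFP libraries. The 2 groups did not overlap (2.37-fold higher in Lpcat3, two-sided exact permutation p = 0.0286, the smallest that 4 against 4 libraries allow), although the edgeR adjusted p was 0.164 and DESeq2's was 9.77e-09. The Y-linked genes Ddx3y (64.9 to 85.6 CPM) and Kdm5d (23.5 to 27.9 CPM) were present in all 8 libraries, with Xist at 0.275 to 3.84 CPM. Each title also carries a code, and its number (1290, 1317, 1344 or 1345) has no stated meaning. Numbers 1344 and 1345 mark Lpcat3 replicates 2, 3 and 4 and eGFP replicate 4, and numbers 1290 and 1317 mark Lpcat3 replicate 1 and eGFP replicates 1, 2 and 3, so group and code number are partly confounded. All 8 hepatocyte markers (Alb, Ttr, Apoa1, Apob, Serpina1a, Tat, Cps1 and Ass1) were detected, with summed levels of 68415 to 100910 CPM in Lpcat3 livers and 60399 to 87080 CPM in eGFP livers.

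None of the 42 P450 genes differed between the Lpcat3 and eGFP livers past an adjusted p of 0.05, in edgeR or in DESeq2. Across all genes the edgeR call rate was 0.00573%, which is 1 gene, Egfros, and the DESeq2 call rate was 0.292%. At an unadjusted p under 0.05 there was 1 P450 gene, Cyp2g1, which is 2.38% of the members, against 8.48% of all genes tested (3.3% higher and 5.18% lower in Lpcat3 livers). In no member did the 4 Lpcat3 libraries lie wholly above or wholly below the 4 eGFP libraries, a pattern that 4.16% of all genes showed (1.93% above and 2.24% below). The lowest adjusted p of a member was 0.565. Leaving out eGFP replicate 4 brought 9 members under an unadjusted p of 0.05, leaving out Lpcat3 replicate 1 brought 4, and leaving out Lpcat3 replicate 3 or eGFP replicate 3 brought 2 each. None of these fits called a member after adjustment. The share of all genes under an unadjusted p of 0.05 in these reduced fits was not counted, so these counts have no all-gene share beside them.

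By direction alone, 29 of the 42 members (69.0%) were higher on average in the Lpcat3 group, against 48.5% of all genes, with a median log2 fold change of 0.08 against -0.01 for all genes. The count of members higher depended on scaling, on the method and on single libraries. Scaling by library totals lowers the median of all genes by 0.12 on the log2 scale (shift of -0.12). With it, 15 of 42 were higher. The median of the members was then -0.046 against -0.127 for all genes, so relative to all genes the members still leaned upward. With limma-voom it was 21 of 42. Without Lpcat3 replicate 3, or without eGFP replicate 3, it was 18 of 42, and without both 10 of 42. Lpcat3 replicate 3 was the highest library for 20 members and eGFP replicate 3 the lowest for 22. Leaving them out thus tends to lower the count by construction. With any other single library left out it was 28 to 33 of 42. The share of all genes higher was counted for none of these alternatives. Lpcat3 replicate 3 and eGFP replicate 3 also lay at the ends of several cell type marker sums. Lpcat3 replicate 3 had the highest hepatocyte sum (100910 CPM, of which Alb made 56982 CPM) and the lowest recruited macrophage sum (134 CPM). Of these markers Apoa1 was instead highest in Lpcat3 replicate 1, Adgre1 lowest in Lpcat3 replicate 4 and Spp1 lowest in eGFP replicate 4. The stellate cell sum of Lpcat3 replicate 3 was also the lowest (110 CPM, with the other 7 libraries at 213 to 257 CPM). Of the stellate cell markers Acta2, Col1a1, Col3a1 and Pdgfrb were lowest in Lpcat3 replicate 3, while Lrat (54.5 CPM there) and Des (2.16 CPM there) were not. For eGFP replicate 3 the hepatocyte sum was the lowest (60399 CPM), although Apob was lowest in Lpcat3 replicate 1. The neutrophil sum of eGFP replicate 3 was the highest (19.3 CPM, with the other 7 at 4.79 to 10.53 CPM). Their part in the P450 levels was not tested. Within the libraries coded 1290 and 1317 the median difference over the members was 0.02 with 22 higher, and within those coded 1344 and 1345 it was -0.09 with 12 higher, so that 12 members had the same sign in both.

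**Figure D1:**
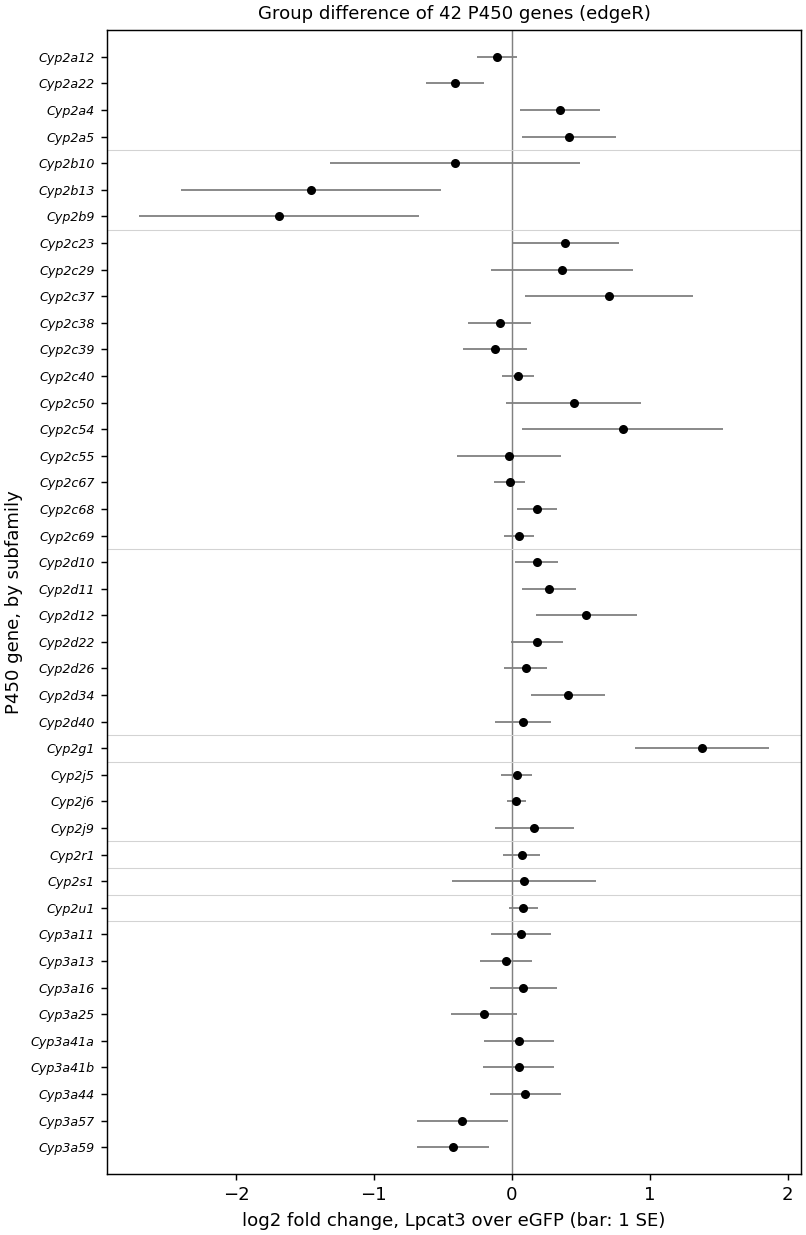
Log2 fold change of each of the 42 P450 genes in the Lpcat3 group over the eGFP group (x axis; bar, 1 standard error; edgeR), with genes grouped by subfamily down the y axis. The points run from -1.69 for Cyp2b9 to 1.38 for Cyp2g1, no gene passed the adjusted threshold, and the widest bars belong to the 3 Cyp2b genes.

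The members ranged over orders of magnitude in level, and the same few genes led in both groups. Counting per kilobase of exon, Cyp3a11 stood first at 1465 CPM per kb in the Lpcat3 group and 1398 in the eGFP group. Cyp2d26 followed at 386 CPM per kb in the Lpcat3 group and 360 in the eGFP group, and Cyp3a25 at 332 in the Lpcat3 group and 382 in the eGFP group. Next came Cyp2c29, with 327 CPM per kb in the Lpcat3 group and 254 in the eGFP group, Cyp2c50, with 286 in the Lpcat3 group and 210 in the eGFP group, and Cyp2j5 and Cyp2a5. The order among those after Cyp3a11 rests on differences smaller than the spread between libraries for several neighbours, since Cyp2c29 alone varied 6.74-fold between its highest and lowest library. At the low end were Cyp2s1, Cyp2g1 and Cyp2b13, the first of them at 0.259 CPM per kb in the Lpcat3 group and 0.245 in the eGFP group. Together the 42 genes took 0.733 to 1.12% of all counts in the Lpcat3 libraries and 0.688 to 1.03% in the eGFP libraries, and Cyp3a11 alone supplied 30.2 to 43.9% of those counts.

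Cyp3a11, the main drug- and steroid-oxidizing Cyp3a enzyme of adult mouse liver and the classical target of PXR, was not separated by group. It was at 2427, 3249, 3937 and 4121 CPM in the Lpcat3 libraries, against 3218, 4298, 2295 and 3293 CPM in the eGFP libraries. The ranges overlapped, and the highest and the lowest of the 8 values both came from eGFP libraries. The log2 fold change was 0.07 (SE 0.22; edgeR adjusted p = 0.930), with opposite signs within the code numbers (-0.43 within 1290 and 1317, 0.19 within 1344 and 1345). Its sign also turned with scaling by library totals (-0.05) and without Lpcat3 replicate 3 (-0.0045), Lpcat3 replicate 4 (-0.03) or eGFP replicate 3 (-0.07).

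Of the 9 Cyp3a genes 5 were higher and 4 lower on average in the Lpcat3 group. All 9 were lower with library totals, with limma-voom, with the code number in the model, or without Lpcat3 replicate 3, eGFP replicate 3 or both. With the code number in the model, Lpcat3 replicates 2 and 3 and eGFP replicate 3 do not bear on the group difference. Without Lpcat3 replicate 1, Lpcat3 replicate 2 or eGFP replicate 2, 6 of 9 were higher. Within codes 1344 and 1345 6 of 9 were higher, and within 1290 and 1317 0 of 9. These counts take Cyp3a41a and Cyp3a41b as separate genes, although their reads could not be told apart. Cyp3a25, another abundant Cyp3a enzyme, was at 573, 566, 915 and 603 CPM in the Lpcat3 libraries, against 605, 971.5, 528 and 954 CPM in the eGFP libraries. Lpcat3 replicate 3 and eGFP replicates 2 and 4 were high, and the other libraries of both groups lay close together. Its log2 fold change was -0.20 (SE 0.24; edgeR adjusted p = 0.797). Cyp3a59 was at 56.8, 36.2, 77.2 and 54.4 CPM in the Lpcat3 libraries, against 61.1, 105, 52.1 and 83.3 CPM in the eGFP libraries, a log2 fold change of -0.42 (SE 0.26, adjusted p = 0.652). Cyp3a57 had few counts, 16 to 33 counts in the Lpcat3 libraries and 22 to 53 counts in the eGFP libraries, with a log2 fold change of -0.36 (SE 0.33, adjusted p = 0.738).

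The remaining Cyp3a genes include those that female mouse liver expresses more than male liver. Cyp3a41a averaged 23.3 ± 5.32 CPM in Lpcat3 livers and 22.4 ± 8.15 CPM in eGFP livers, and Cyp3a41b averaged 22.8 ± 5.35 CPM in Lpcat3 livers and 22.1 ± 7.995 CPM in eGFP livers. Their levels could not be counted apart, because 88.3% of the 101-base windows of the Cyp3a41a transcript are also found in Cyp3a41b, and the near-equal totals of 4382 and 4301 counts may be reads divided between them. Cyp3a44 averaged 7.28 ± 1.93 CPM in Lpcat3 livers and 6.80 ± 2.16 CPM in eGFP livers, and Cyp3a16, known from fetal liver, averaged 10.03 ± 2.25 CPM in Lpcat3 livers and 9.47 ± 3.09 CPM in eGFP livers. Cyp3a13 averaged 164 ± 40.3 CPM in Lpcat3 livers and 169 ± 35.5 CPM in eGFP livers. In 7 of the 9 Cyp3a genes the highest library was eGFP replicate 2, and in 6 of 9 the lowest was eGFP replicate 3. The summed Cyp3a level averaged 4383 ± 911 CPM in Lpcat3 livers and 4347 ± 1085 CPM in eGFP livers.

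**Figure D2:**
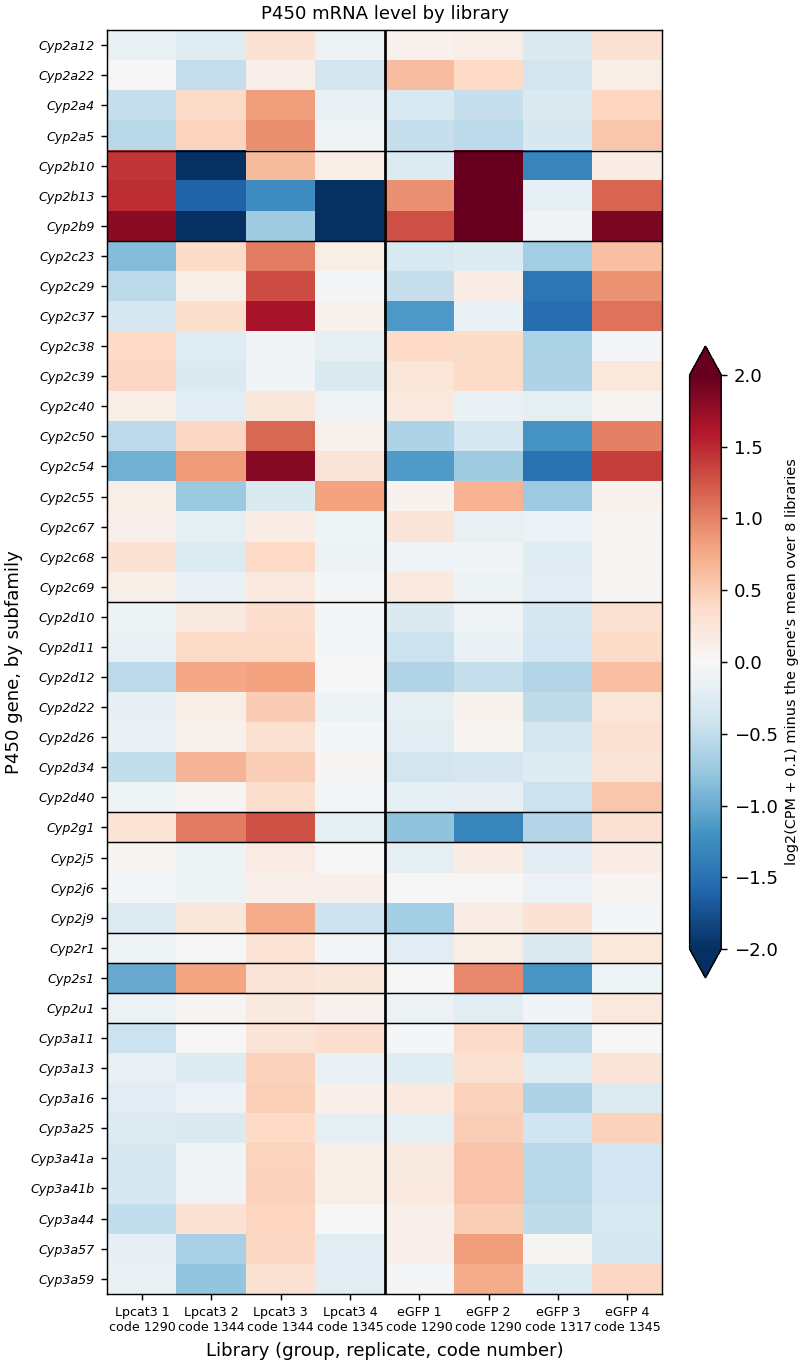
Log2 level of each P450 gene in each library relative to that gene's mean over the 8 libraries (color scale in log2 units, CPM plus 0.1; rows, genes by subfamily; columns, libraries with their code numbers, Lpcat3 left of the vertical line and eGFP right of it). Lpcat3 replicate 3 is the highest library for 20 of the 42 genes and eGFP replicate 3 the lowest for 22, while the Cyp2b rows change most from library to library.

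The Cyp2c genes encode epoxygenases and hydroxylases of arachidonic acid as well as drug-metabolizing enzymes, and they differed in how far they varied. Cyp2c29, Cyp2c37, Cyp2c50, Cyp2c54 and Cyp2c23 varied 3.71-fold to 9.90-fold over the 8 libraries, and Cyp2c40, Cyp2c67, Cyp2c68 and Cyp2c69 varied 1.35-fold to 1.59-fold. Cyp2c38, Cyp2c39 and Cyp2c55 lay between, at 2.03-fold to 3.01-fold. Cyp2c29, inducible through CAR and PXR, was at 350.1, 547, 1256 and 494 CPM in the Lpcat3 libraries, against 366, 561, 187 and 942 CPM in the eGFP libraries. The highest value was Lpcat3 replicate 3 and the lowest eGFP replicate 3, with the other libraries of both groups interleaved. Its log2 fold change of 0.37 (SE 0.52; edgeR's adjusted p = 0.832) turned to -0.15 without Lpcat3 replicate 3.

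Cyp2c54, a close relative of Cyp2c50, had the largest positive difference among the Cyp2c genes. Its level was 48.2, 170.1, 332 and 112 CPM in the Lpcat3 libraries, against 42.7, 57.8, 33.6 and 245 CPM in the eGFP libraries. The 4 libraries coded 1344 or 1345 were all above the 4 coded 1290 or 1317, whichever virus they had received. Over all libraries it was 1.75-fold higher in the Lpcat3 group (log2 fold change 0.80, SE 0.73, edgeR adjusted p = 0.735), but within code numbers the log2 difference was 0.11 for 1290 and 1317 and -0.26 for 1344 and 1345. The same order of libraries was found for Cyp2c37, at 104, 168, 416 and 139 CPM in the Lpcat3 libraries, against 59.7, 121, 46.2 and 281 CPM in the eGFP libraries, and for Cyp2c50, at 274, 526, 868 and 415 CPM in the Lpcat3 libraries, against 256.5, 309.8, 174 and 786 CPM in the eGFP libraries. The log2 fold change was 0.71 for Cyp2c37 (SE 0.61, edgeR adjusted p = 0.722) and 0.45 for Cyp2c50 (SE 0.49, adjusted p = 0.782). Cyp2c23, also called Cyp2c44, had that order of libraries too and averaged 254 ± 125 CPM in Lpcat3 livers and 194 ± 80.8 CPM in eGFP livers.

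Cyp2c40, Cyp2c67, Cyp2c68 and Cyp2c69 had the narrowest spread of the Cyp2c genes. Cyp2c69 was at 45.0, 37.4, 47.5 and 40.6 CPM in the Lpcat3 libraries, against 47.9, 38.9, 35.5 and 42.1 CPM in the eGFP libraries. Its log2 fold change was 0.05 with an SE of 0.11 (edgeR adjusted p = 0.885). Cyp2c68 was at 108, 73.5, 117 and 83.0 CPM in the Lpcat3 libraries, against 84.7, 85.9, 75.0 and 91.1 CPM in the eGFP libraries (log2 fold change 0.18, SE 0.14, adjusted p = 0.694). The 4 genes share 19.6 to 43.7% of their 101-base windows with other transcripts, so part of their reads may be divided between neighbours. Cyp2c38 averaged 134 ± 29.0 CPM in Lpcat3 livers and 142 ± 42.2 CPM in eGFP livers, and Cyp2c39, a retinoic acid hydroxylase, averaged 8.79 ± 2.18 CPM in Lpcat3 livers and 9.57 ± 2.59 CPM in eGFP livers. Cyp2c55, best known from colon, had 50 to 167 counts in the Lpcat3 libraries and 60 to 151 counts in the eGFP libraries. Summed over 12 genes, Cyp2c stood at 2317 ± 1049 CPM in Lpcat3 livers and 1816 ± 895 CPM in eGFP livers, a log2 difference of 0.35 over all libraries that became -0.0055 without Lpcat3 replicate 3.

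**Figure D3:**
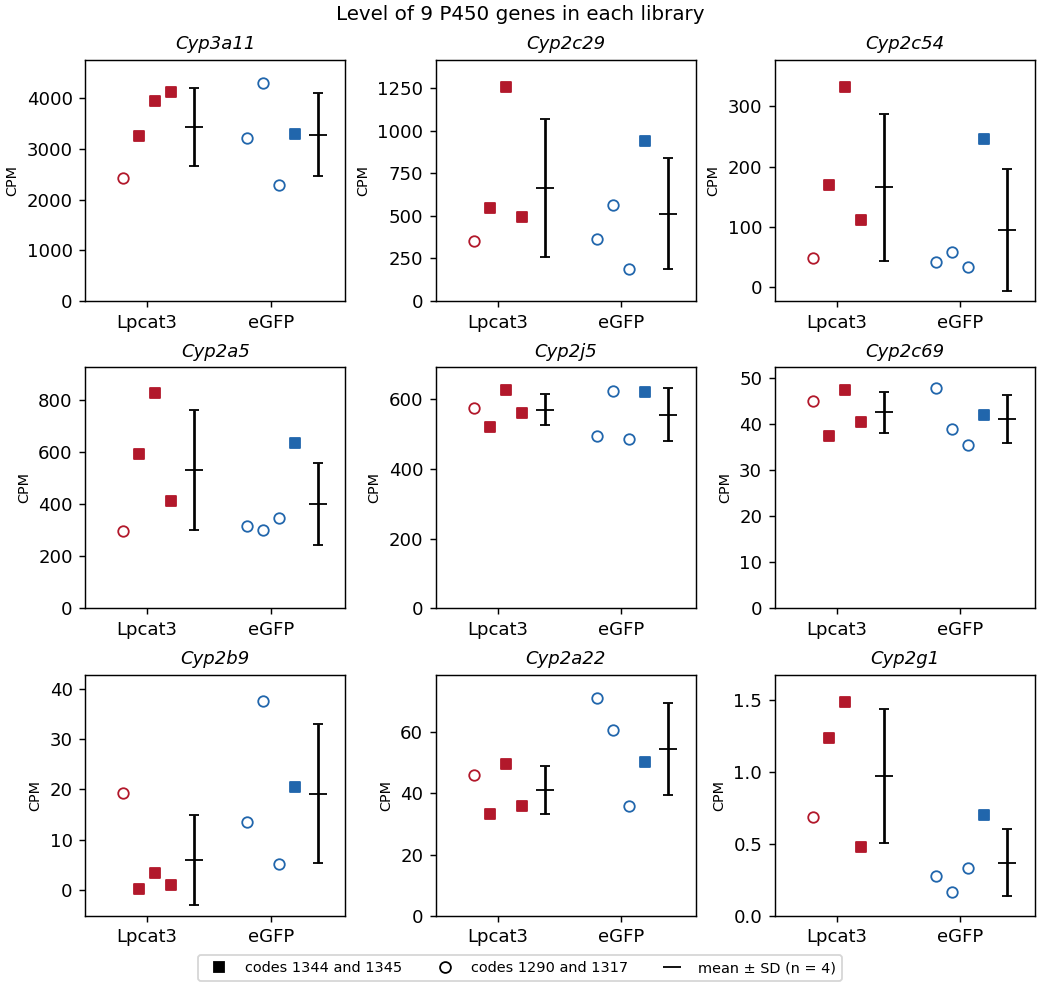
Level in CPM (y axis, linear) of 9 P450 genes in each Lpcat3 library (left, red) and eGFP library (right, blue), with mean ± SD over 4 libraries beside the points; filled squares have code numbers 1344 or 1345 and open circles 1290 or 1317. For Cyp2c54 and Cyp2a5 every filled square lies above every open circle, for Cyp2j5 and Cyp2c69 the groups and codes are mixed within narrow ranges, and for Cyp2b9 the values spread from 0.133 to 37.6 CPM.

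Cyp2a5, the mouse counterpart of the human nicotine- and coumarin-oxidizing enzyme CYP2A6, led the Cyp2a subfamily. Its level was 295, 590.4, 827 and 412 CPM in the Lpcat3 libraries, against 316, 299.98, 346 and 633 CPM in the eGFP libraries. As for Cyp2c54, the libraries with high code numbers were the 4 highest, with eGFP replicate 4 among them and Lpcat3 replicate 1 the lowest of all. The log2 fold change was 0.41 (SE 0.34; edgeR adjusted p = 0.707), and it was -0.12 within codes 1290 and 1317 and -0.05 within 1344 and 1345. Cyp2a4, a steroid hydroxylase and the nearest relative of Cyp2a5 in sequence, had the same order, at 93.3, 168, 229 and 118 CPM in the Lpcat3 libraries, against 104, 93.4, 106 and 174 CPM in the eGFP libraries. Reads of the pair can be mistaken for one another in part, as 9.30% of Cyp2a5 windows also occur in Cyp2a4.

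Cyp2a22 pointed the other way and had the smallest p among the members lower in the Lpcat3 group. It was at 46.1, 33.1, 49.5 and 35.8 CPM in the Lpcat3 libraries, against 71.2, 60.9, 36.0 and 50.5 CPM in the eGFP libraries. Of the eGFP libraries, replicate 3 alone lay within the range of the Lpcat3 libraries. The log2 fold change was -0.41 (SE 0.21; unadjusted p = 0.081, edgeR adjusted p = 0.616), with -0.28 within codes 1290 and 1317 and -0.35 within 1344 and 1345. Cyp2a12, which hydroxylates bile acids and testosterone, averaged 160 ± 27.2 CPM in Lpcat3 livers and 172 ± 27.6 CPM in eGFP livers (log2 fold change -0.10, SE 0.14). All 4 Cyp2a genes were lower in the Lpcat3 group within each pair of code numbers, although Cyp2a4 and Cyp2a5 were higher over all libraries.

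The Cyp2d subfamily is the mouse counterpart of human CYP2D6, and its 7 members were all higher on average in the Lpcat3 group. Fewer were in some other fits, with 5 of 7 with library totals and 4 of 7 without both libraries numbered 3. It was 2 of 7 with the code division in the model and 0 of 7 with the code number itself. Code 1344 occurs only in the Lpcat3 group and code 1317 only in the eGFP group. With the code number in the model the group difference therefore rests on Lpcat3 replicates 1 and 4 and eGFP replicates 1, 2 and 4. Cyp2d26, the most abundant, was at 569.5, 664, 776 and 615 CPM in the Lpcat3 libraries, against 539, 643, 490.1 and 773 CPM in the eGFP libraries. These ranges overlapped almost entirely (log2 fold change 0.10, SE 0.16, edgeR adjusted p = 0.843). Among the rarer genes, Cyp2d12 was at 8.18, 20.3, 20.7 and 11.9 CPM in the Lpcat3 libraries, against 7.74, 8.41, 7.80 and 18.0 CPM in the eGFP libraries (log2 fold change 0.54, SE 0.37, adjusted p = 0.667). Cyp2d34 had 47, 106, 85 and 73 counts in the Lpcat3 libraries, against 56, 55, 64 and 84 counts in the eGFP libraries (log2 fold change 0.41, SE 0.27, adjusted p = 0.666). In both genes eGFP replicate 4 stood with the Lpcat3 libraries and Lpcat3 replicate 1 with the eGFP libraries, which is again the order of the code numbers.

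Cyp2d11 was at 25.6, 36.8, 37.1 and 27.7 CPM in the Lpcat3 libraries, against 21.02, 25.9, 21.7 and 36.8 CPM in the eGFP libraries, a log2 fold change of 0.27 (SE 0.20; edgeR's adjusted p = 0.672). Cyp2d10 averaged 316 ± 44.5 CPM in Lpcat3 livers and 279 ± 59.2 CPM in eGFP livers, and 10.4% of its windows also occur in Cyp2d11. Cyp2d22 averaged 161 ± 36.1 CPM in Lpcat3 livers and 142 ± 31.2 CPM in eGFP livers, and Cyp2d40 averaged 31.5 ± 4.44 CPM in Lpcat3 livers and 29.7 ± 9.68 CPM in eGFP livers. The summed Cyp2d level was 1216 ± 185 CPM in Lpcat3 livers and 1102 ± 235 CPM in eGFP livers. It differed by 0.14 on the log2 scale over all libraries, by 0.06 within codes 1290 and 1317 and by -0.15 within 1344 and 1345.

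The 3 Cyp2b genes were the most variable members and all were lower on average in the Lpcat3 group. Cyp2b9, a female-biased gene, was at 19.3, 0.133, 3.31 and 0.955 CPM in the Lpcat3 libraries, against 13.4, 37.6, 5.20 and 20.4 CPM in the eGFP libraries. Lpcat3 replicate 1 lay among the eGFP libraries while the other 3 Lpcat3 libraries were below all of them. The lowest value, in Lpcat3 replicate 2, corresponds to 3 counts. The log2 fold change was -1.69 with an SE of 1.02 (edgeR adjusted p = 0.648), and it was 0.04 within codes 1290 and 1317 against -3.80 within 1344 and 1345. Cyp2b13, also female-biased, gave 35, 2, 3 and 0 counts in the Lpcat3 libraries, against 25, 55, 11 and 29 counts in the eGFP libraries, a log2 fold change of -1.45 (SE 0.94, adjusted p = 0.665). Single libraries moved both values: without Lpcat3 replicate 1 they were -3.74 for Cyp2b9 and -3.94 for Cyp2b13, and without eGFP replicate 2 they were -1.13 and -0.97. Within codes 1290 and 1317 the Cyp2b13 difference was 0.31, and within 1344 and 1345 it was -3.95. A count of 0 in Lpcat3 replicate 4 allows up to 0.119 CPM, counting error only.

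Cyp2b10, the classical CAR target, had 95, 2, 48 and 40 counts in the Lpcat3 libraries, against 30, 183, 14 and 39 counts in the eGFP libraries. High and low counts occurred in both groups, and the library with 2 counts was also among the lowest for Cyp2b9 and Cyp2b13. Its log2 fold change was -0.41 (SE 0.91; edgeR adjusted p = 0.894). The summed Cyp2b level was 8.38 ± 11.2 CPM in Lpcat3 livers and 23.1 ± 17.6 CPM in eGFP livers, a log2 difference of -1.46 that became -3.01 without Lpcat3 replicate 1 and -0.84 without eGFP replicate 2. Apart from Cyp2b9 and Cyp2b13, the female-biased members (Cyp2a4, Cyp2c40, Cyp2c69, Cyp3a16, Cyp3a41a, Cyp3a41b and Cyp3a44) were all higher on average in the Lpcat3 group, by 0.04 to 0.35 on the log2 scale, but none passed the test and, with library totals, Cyp2a4 alone of these was higher.

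Several genes with roles in fatty acid or vitamin metabolism varied little between libraries. Cyp2j5, an arachidonic acid epoxygenase, was at 574, 521, 627 and 559.8 CPM in the Lpcat3 libraries, against 494, 624, 487 and 621 CPM in the eGFP libraries (log2 fold change 0.04, SE 0.11, edgeR adjusted p = 0.928). Its groups covered nearly the same range. Cyp2j6 had the narrowest spread of all 42 genes, 1.16-fold between its highest and lowest library, at 78.65 ± 5.51 CPM in Lpcat3 livers and 76.9 ± 3.67 CPM in eGFP livers. Cyp2j9 averaged 9.83 ± 3.77 CPM in Lpcat3 livers and 8.74 ± 2.33 CPM in eGFP livers.

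Cyp2r1, the hepatic vitamin D hydroxylase, was at 12.2, 12.9, 15.6 and 12.6 CPM in the Lpcat3 libraries, against 11.04, 14.1, 10.54 and 15.0 CPM in the eGFP libraries, a log2 fold change of 0.07 (SE 0.14; edgeR's adjusted p = 0.876). Cyp2u1, a fatty acid hydroxylase, was at 33.6, 37.2, 41.7 and 38.3 CPM in the Lpcat3 libraries, against 33.7, 31.1, 35.1 and 42.4 CPM in the eGFP libraries (log2 fold change 0.08, SE 0.10, adjusted p = 0.807). Both genes stayed within 1.48-fold over the 8 libraries. Cyp2s1, better known from epithelia, was scarce, with 7, 29, 18 and 21 counts in the Lpcat3 libraries, against 18, 36, 7 and 16 counts in the eGFP libraries (log2 fold change 0.09, SE 0.52, adjusted p = 0.963). The signs for Cyp2j5, Cyp2r1, Cyp2u1 and Cyp2s1 turned negative with library totals, at -0.08, -0.04, -0.03 and -0.03.

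Cyp2g1, known from the olfactory epithelium, had the smallest p and the fewest counts of the members. It gave 16, 28, 31 and 12 counts in the Lpcat3 libraries, against 7, 4, 9 and 17 counts in the eGFP libraries. Lpcat3 replicates 2 and 3 were above every eGFP library, and Lpcat3 replicates 1 and 4 were below eGFP replicate 4. The log2 fold change was 1.38 (SE 0.49; unadjusted p = 0.0186, edgeR adjusted p = 0.565; DESeq2 adjusted p = 0.345), and it kept its sign within codes 1290 and 1317 (1.42) and within 1344 and 1345 (0.60).

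The code numbers of the libraries were followed more closely than the groups by a part of the family. In 12 of the 42 members (28.6%) all 4 libraries coded 1344 or 1345 were above all 4 coded 1290 or 1317, against 6.42% of all genes tested, and in 0 members were they all below, against 6.24%. These were Cyp2a4, Cyp2a5, Cyp2c23, Cyp2c37, Cyp2c50, Cyp2c54, Cyp2d10, Cyp2d11, Cyp2d12, Cyp2d34, Cyp2d40 and Cyp2u1. Cyp2c54 averaged 215 CPM in the libraries coded 1344 or 1345 and 45.6 CPM in those coded 1290 or 1317. Cyp2a5 averaged 616 CPM in those coded 1344 or 1345 and 314 CPM in those coded 1290 or 1317. By mean alone 31 of 42 members (73.8%) were higher in the libraries coded 1344 or 1345. The division has 4 libraries on each side and was known from earlier results of these data, so it is given as a description with no test.

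Some other hepatocyte genes lay in the same order, while 0 of the 8 hepatocyte markers were wholly higher or wholly lower by code number. Among 13 pericentral genes 6 were higher without overlap in the libraries coded 1344 or 1345 (Cyp2e1, Cyp1a2, Oat, Slc1a2, Rgn and Gulo), and among 11 periportal genes 0 were higher and 1, Hsd17b13, was lower. Of all genes tested 6.42% were higher in this way and 6.24% lower. Por was at 270 CPM in Lpcat3 replicate 1 and 485, 561 and 466 CPM in the other Lpcat3 libraries, against 199, 265 and 149 CPM in eGFP replicates 1 to 3 and 475 CPM in eGFP replicate 4. Nr1i3, which encodes CAR, had that order too. Of 17 acute phase and cytokine genes 8 (Il1b, Tnfrsf1a, Nfkb1, Saa1, Hp, Orm2, Lcn2 and Apcs) were lower without overlap in the libraries coded 1344 or 1345. Markers of Kupffer cells (0 of 5), T and NK cells (0 of 5), B cells (0 of 4) and cholangiocytes (0 of 5) were not separated by these codes in either direction. Endothelial markers were lower without overlap in the libraries coded 1344 or 1345 for 3 of 5 genes and recruited macrophage markers for 3 of 9. The same held for 2 of 6 stellate cell markers and 1 of 3 tested neutrophil markers, against 6.24% of all genes. Whether these shifts take part in the P450 levels was not tested, and in whole liver RNA fewer cells of a type and less RNA per cell cannot be told apart.

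**Figure D4:**
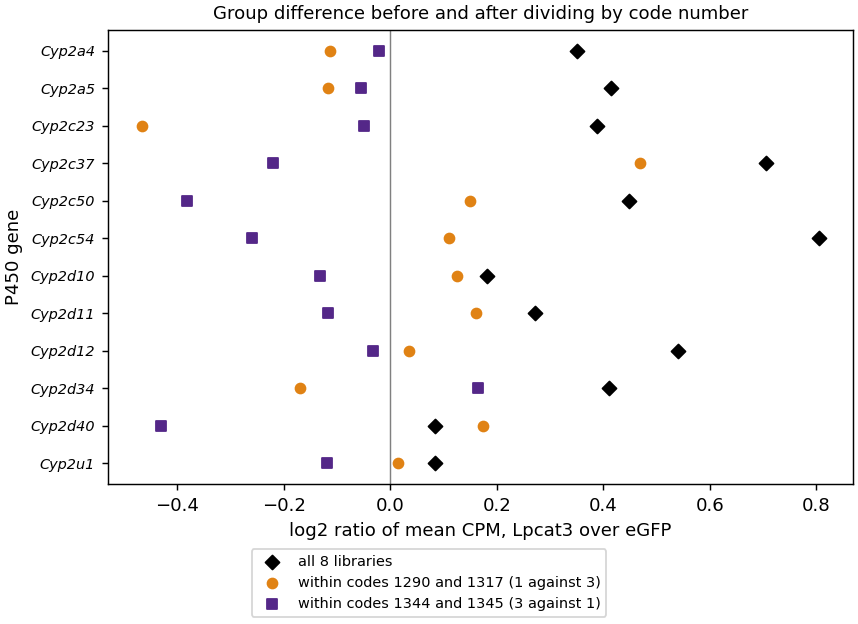
Log2 ratio of mean CPM, Lpcat3 over eGFP (x axis), for the 12 P450 genes (y axis) whose libraries coded 1344 or 1345 all exceed those coded 1290 or 1317: all 8 libraries (diamonds), 1 Lpcat3 against 3 eGFP libraries within codes 1290 and 1317 (circles), and 3 against 1 within codes 1344 and 1345 (squares). All diamonds lie above 0, from 0.08 to 0.80, while 11 of the 12 squares lie below 0 and the circles lie on both sides. The genes were picked by that order of libraries, which places 3 Lpcat3 libraries and 1 eGFP library on the high side. Diamonds above 0 therefore largely follow from the choice of genes.

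The proteins that P450 enzymes depend on were compared with the same fit. Of 15 genes of electron supply and heme metabolism 14 were higher on average in the Lpcat3 group (6 of 15 with library totals), against 48.5% of all genes. Their median log2 fold change was 0.08, none was called by edgeR, and 2 had an unadjusted p under 0.05, against 8.48% of all genes. Within codes 1290 and 1317 12 were higher (median 0.09), and within 1344 and 1345 7 were higher (median -0.03). In 4 of them the libraries coded 1344 or 1345 were all above the rest, against 6.42% of all genes. Alas1, the rate-limiting enzyme of heme synthesis, was at 817, 1285, 1290 and 791 CPM in the Lpcat3 libraries, against 602, 486, 289.95 and 551 CPM in the eGFP libraries. Its groups did not overlap, and the difference held within codes 1290 and 1317 (0.83 on the log2 scale) and within 1344 and 1345 (1.03). Its log2 fold change of 1.12 (SE 0.25) had an edgeR adjusted p of 0.564 and a DESeq2 adjusted p of 0.0067. Alad, the next enzyme of that pathway, averaged 69.6 ± 5.13 CPM in Lpcat3 livers and 58.7 ± 8.28 CPM in eGFP livers (adjusted p = 0.581). Hmox1, which degrades heme, averaged 29.3 ± 3.82 CPM in Lpcat3 livers and 62.1 ± 55.3 CPM in eGFP livers, where replicate 3 alone reached 144 CPM.

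The receptors that switch on Cyp2b, Cyp2c and Cyp3a genes did not pass the test between the groups. Nr1i2, which encodes PXR, averaged 53.3 ± 11.03 CPM in Lpcat3 livers and 44.8 ± 10.3 CPM in eGFP livers (log2 fold change 0.25, edgeR adjusted p = 0.688), and Nr1i3 averaged 78.6 ± 15.0 CPM in Lpcat3 livers and 65.0 ± 28.4 CPM in eGFP livers (0.28, adjusted p = 0.777). Of the 15 tested receptors and partners 9 were higher and 6 lower (6 higher with library totals), and Nr0b2, a repressor of nuclear receptors, was the only one with an unadjusted p under 0.05, at 7.35 ± 1.99 CPM in Lpcat3 livers and 13.3 ± 5.64 CPM in eGFP livers. Of 18 PXR and CAR targets outside the P450 family 7 were higher and 11 lower, with a median log2 fold change of -0.02. Gsta1, a glutathione transferase, had the smallest p of these, at 20.9 ± 4.15 CPM in Lpcat3 livers and 33.1 ± 12.1 CPM in eGFP livers (adjusted p = 0.581). The 6 measured CAR- or PXR-inducible P450 genes (Cyp2a5, Cyp2b10, Cyp2c29, Cyp2c37, Cyp2c55 and Cyp3a11) were divided as well, 4 higher and 2 lower, or 3 and 3 with library totals.

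Hepatocyte transcription factors that act on P450 promoters were higher on average in 14 of 15 cases (10 of 15 with library totals), against 48.5% of all genes. In 5 of them the groups did not overlap (1.93% of all genes tested), and 6 had an unadjusted p under 0.05 (3.3% of all genes). Onecut1, a factor of hepatocyte and bile duct identity, averaged 59.5 ± 17.5 CPM in Lpcat3 livers and 15.3 ± 3.11 CPM in eGFP livers (log2 fold change 1.96, SE 0.22, edgeR adjusted p = 0.0752, DESeq2 adjusted p = 3.13e-14). Foxa1 averaged 63.2 ± 3.64 CPM in Lpcat3 livers and 51.2 ± 4.68 CPM in eGFP livers, and Cebpb averaged 63.6 ± 9.21 CPM in Lpcat3 livers and 48.6 ± 3.29 CPM in eGFP livers, each with an edgeR adjusted p of 0.564. Of 10 genes of growth hormone signalling, which sets sex-biased P450 expression, 5 were higher and 5 lower, with a median log2 fold change of 0.04, and Jak2, Stat5a, Stat5b and Socs3 were among the lower ones. Socs2 averaged 21.3 ± 6.204 CPM in Lpcat3 livers and 10.9 ± 1.76 CPM in eGFP livers (log2 fold change 0.97, edgeR adjusted p = 0.564, DESeq2 adjusted p = 0.00687). Cish averaged 16.3 ± 6.02 CPM in Lpcat3 livers and 5.59 ± 1.91 CPM in eGFP livers (1.54, edgeR adjusted p = 0.564, DESeq2 adjusted p = 0.00232). Bcl6, a repressor of female-biased genes in male liver, averaged 45.4 ± 12.3 CPM in Lpcat3 livers and 72.7 ± 10.9 CPM in eGFP livers (log2 fold change -0.68, adjusted p = 0.564).

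The list of acute phase and cytokine genes holds inflammatory signals known to lower P450 transcripts in rodent liver and acute phase products of the liver itself. Of 17 tested genes 16 were lower on average in the Lpcat3 group, with a median log2 fold change of -0.24 and no call. Among all genes tested 48.5% were higher. The median difference of the list was -0.06 within codes 1290 and 1317 and -0.11 within 1344 and 1345. Il1b averaged 2.27 ± 0.593 CPM in Lpcat3 livers and 4.88 ± 2.63 CPM in eGFP livers, and Hp averaged 1136 ± 189.7 CPM in Lpcat3 livers and 1412 ± 111 CPM in eGFP livers. Orm2 averaged 77.7 ± 18.3 CPM in Lpcat3 livers and 104 ± 15.9 CPM in eGFP livers. Each of the 3 had an unadjusted p under 0.05 (5.18% of all genes were that low and lower in Lpcat3 livers) and an edgeR adjusted p of 0.565 to 0.581. All 3 are among the 8 genes of the list that were lower without overlap in the libraries coded 1344 or 1345. Their group difference is therefore partly confounded with code number. Recruited macrophage markers were lower for 8 of 9 genes, with summed levels of 134 to 288 CPM in Lpcat3 livers and 210 to 446 CPM in eGFP livers, and no marker of the list was at 0 in every library. Kupffer cell markers were lower for 4 of 5 genes (88.7 to 169 CPM in Lpcat3 livers and 165 to 206 CPM in eGFP livers). The part of these levels in the P450 values was not tested.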

How the data were processed

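RNA of 8 liver libraries was measured, 4 per group. No 2 libraries of a group agreed within sampling noise (chi-square per degree of freedom 18.9 to 118). The authors deposited a table of raw counts per gene, whole numbers that were not normalized. Per the submitters' processing notes, bcl2fastq 2.20, DESeq2 and the build GRCm39 were used; which aligner and counting program were used, and whether by strand, is not given in the sources used here. Near-identical copies may therefore share reads. Windows of 101 bases shared by transcripts of different genes were counted to find such copies. Columns were joined to samples by the codes in the titles, with 0 columns left over. Symbols and promoters came from NCBI RefSeq tables of GRCm38.p6, which matched 39397 of 40838 rows and 99.5% of the counts.

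Genes were filtered with filterByExpr (minimum count 10), which left 17438. The groups were compared with edgeR 4.0.16 in R 4.3.3 (TMM scaling, robust quasi-likelihood fit, group as the only term, two-sided, Benjamini-Hochberg adjustment over all genes tested, threshold 0.05). The method was tested on simulated data. Levels are CPM from TMM-scaled totals, as mean ± SD. The biological coefficient of variation was 16.9%, and the libraries held 22433625 to 25651874 counts. Intervals from counts cover counting error only, and a count of 0 was taken to allow up to 3 counts.

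Named were Lpcat3, the member with the highest level in each subfamily, the 6 members with the smallest p in each direction, and up to 3 genes with the smallest p from each list outside the family; further genes were named after their values were seen. Members, lists and the division by code number were chosen with earlier results of these data known. Alternatives were other scalings and filters, DESeq2 1.42.0, limma-voom (limma 3.58.1), a non-robust fit, omission of each library in turn, a replicate block, and the code numbers in the model. In the list of pericentral genes 1 gene is not reported here.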

Additional observations from a re-analysis of the deposited data

Results flagged for a closer look

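In 10 of 84 gene and group combinations, 4 libraries each, 1 library stood apart from the other 3, measured as its gap to the nearest other library divided by the group's whole range, and set against Dixon's 95% critical value for 4 samples. Chance marks about 1 in 20 such groups. In 5 of the 10 the library was eGFP replicate 4, which carries code number 1345, and it was the high one each time. Its gap ratio was 0.9346 for Cyp2d12 (18.0 CPM, with the other eGFP libraries at 7.74 to 8.41), 0.8854 for Cyp2c54 (245 CPM, others 33.6 to 57.8), 0.8632 for Cyp2a5 (633 CPM, others 299.98 to 346), 0.8615 for Cyp2d34 (3.47 CPM, others 2.2 to 2.38) and 0.848 for Cyp2a4 (174 CPM, others 93.4 to 106). All 5 of these genes are among the 12 whose libraries coded 1344 or 1345 exceeded the rest. In each of the 12, eGFP replicate 4 is the highest eGFP library by definition, as it alone of that group carries such a code. Both observations therefore rest on the same values. For Cyp2b10, eGFP replicate 2 stood apart with a ratio of 0.8431, at 7.47 CPM against 0.520 to 1.61 CPM in the other eGFP libraries.

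In the Lpcat3 group, replicate 1, the only Lpcat3 library with code number 1290, stood apart for Cyp2b13 with a ratio of 0.9045, at 1.51 CPM against 0.0 to 0.144 CPM in the others. It also did for Cyp2b9 with a ratio of 0.8345, at 19.3 CPM against 0.133 to 3.31 CPM. Lpcat3 replicate 3 stood apart for Cyp3a25 with a ratio of 0.8943, at 914.5 CPM against 566 to 603 CPM, and for Cyp3a13 with a ratio of 0.8515, at 224 CPM against 136 to 149 CPM. What sets these libraries apart was not tested.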

How the results depend on the processing

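No P450 gene was called under any alternative run; the lowest adjusted p of a member ranged from 0.28 (without eGFP replicate 4) to 1.0 (code number in the model). Calls over all genes, 1 in edgeR, were 51 with DESeq2, 3 with library totals, 2 without robust estimation, 0 to 7 with 1 library left out, and 0 with no filter, the replicate block, either code term or both libraries numbered 3 left out (added after seeing the data). Members at an unadjusted p under 0.05, 1 in edgeR, were 5 with limma-voom, 4 without both libraries numbered 3 and 3 with library totals. They were 2 with the code number as a covariate, 0 with the code division or the replicate block, and 1 to 9 with 1 library left out. With a minimum count of 50 there were 0, but that filter removed Cyp2g1 from the test. The all-gene share at that p was not counted for these alternative fits. Same-numbered libraries did not deviate together as a rule (correlations of 0.285, -0.069, -0.400 and -0.124 for replicates 1 to 4). Lpcat3 replicate 1 was closest to eGFP replicate 1, and Lpcat3 replicates 2, 3 and 4 were closest to eGFP replicates 1, 4 and 3. With 4 libraries per group these values cannot decide whether any of the numbers mark pairs. Members higher in Lpcat3, 29 of 42, were 21 with limma-voom, 15 with library totals or the code division, 10 without both libraries numbered 3, 5 with the code covariate (median log2 fold change -0.20), and 18 to 33 with 1 library left out. Under the code covariate, Lpcat3 replicates 2 and 3 and eGFP replicate 3 do not bear on the group difference, as their codes occur in 1 group only. Summed differences moved to -0.15 for Cyp2d and -0.12 for Cyp2u within 1344 and 1345, and to -1.43 for Cyp2s and -0.39 for Cyp3a within 1290 and 1317. The sum of all members differed by 0.13 over all libraries, -0.18 within 1290 and 1317 and -0.08 within 1344 and 1345. In the same order Cyp2a stood at 0.25, -0.13 and -0.10, Cyp2b at -1.46, 0.11 and -3.01, and Cyp2c at 0.35, 0.08 and -0.24. Within 1344 and 1345 Cyp2j was at -0.11 and Cyp2r at -0.13.

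Several positive log2 fold changes turned negative. With the code division they were -0.086 for Cyp2a5, -0.19 for Cyp2c29, -0.0024 for Cyp2d12, -0.072 for Cyp2d26, -0.012 for Cyp2j5, -0.050 for Cyp2r1, -0.26 for Cyp2s1, -0.053 for Cyp2u1 and -0.12 for Cyp3a11. With the code covariate they were -0.30 for Cyp2a5, -0.63 for Cyp2c29, -0.26 for Cyp2d12, -0.17 for Cyp2d26, -0.042 for Cyp2j5, -0.13 for Cyp2r1, -0.75 for Cyp2s1, -0.033 for Cyp2u1, -0.21 for Cyp3a11, -0.10 for Cyp2d11 and -0.19 for Cyp2d34. Without both libraries numbered 3 they were -0.43 for Cyp2c29, -0.081 for Cyp2d26, -0.072 for Cyp2j5, -0.093 for Cyp2r1, -0.23 for Cyp2s1 and -0.14 for Cyp3a11. With library totals they were -0.012 for Cyp2d26, -0.077 for Cyp2j5, -0.044 for Cyp2r1, -0.034 for Cyp2s1, -0.035 for Cyp2u1 and -0.053 for Cyp3a11, and with limma-voom -0.073 for Cyp2s1 and -0.035 for Cyp3a11. With 1 library left out they ranged from -0.15 to 0.83 for Cyp2c29, -0.025 to 0.097 for Cyp2j5, -0.014 to 0.16 for Cyp2r1, -0.21 to 0.60 for Cyp2s1 and -0.071 to 0.23 for Cyp3a11. The causes were not tested. Depth limits Cyp2b10, Cyp2b13, Cyp2g1, Cyp2s1 and Cyp3a57, each with under 60 counts in at least 6 of 8 libraries.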

Other observations

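The genes that the rule left out and the P450 genes of other families were measured in the same fit. Cyp2d9, a testosterone hydroxylase of male mouse liver, was at 237, 715, 666 and 427 CPM in the Lpcat3 libraries, against 225, 235, 248 and 559 CPM in the eGFP libraries (log2 fold change 0.69, SE 0.40, edgeR adjusted p = 0.641). Its libraries coded 1344 or 1345 were all above those coded 1290 or 1317, and within the code numbers its log2 difference was 0.0031 and 0.11. Cyp2c70, which makes muricholic acids in mouse liver, averaged 186 ± 56.2 CPM in Lpcat3 livers and 160 ± 38.5 CPM in eGFP livers (log2 fold change 0.22, adjusted p = 0.764).

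Of 29 tested genes of other P450 families, 22 were higher and 7 lower on average in the Lpcat3 group, with a median log2 fold change of 0.25, against 48.5% higher among all genes. None was called by edgeR or DESeq2, and 5 had an unadjusted p under 0.05, against 8.48% of all genes. Cyp2e1, the ethanol-inducible P450 of pericentral hepatocytes, averaged 8145 ± 1717 CPM in Lpcat3 livers and 5700 ± 1853 CPM in eGFP livers (adjusted p = 0.597). Cyp4a12b, a male-biased fatty acid hydroxylase, averaged 267 ± 148 CPM in Lpcat3 livers and 106 ± 50.4 CPM in eGFP livers (adjusted p = 0.579). Cyp4b1 averaged 12.8 ± 2.07 CPM in Lpcat3 livers and 16.1 ± 1.37 CPM in eGFP livers, and Cyp4f16 averaged 2.62 ± 0.466 CPM in Lpcat3 livers and 4.08 ± 1.31 CPM in eGFP livers. In 11 of these 29 genes the libraries coded 1344 or 1345 were all higher than the rest, against 6.42% of all genes, and in 1, Cyp4b1, they were all lower.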
